A study of Mus musculus with 8 samples.

Results

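Of the 9506 peaks in the deposited list of chromatin bound by biotin-tagged KLF13, 384 (4.04%, exact 95% binomial interval 3.65 to 4.45) lay just upstream of a transcription start site (TSS). They are the peaks whose nearer edge the authors' annotation places 1 to 1000 bp before a TSS without overlapping it, and they were assigned to 372 genes. The other classes were 5984 peaks over a TSS, 1231 peaks 1 to 1000 bp downstream of one, and 1907 peaks farther away. All libraries came from HT22, an immortalised mouse hippocampal neuronal line, in a derivative called HT22-BirA that stably makes a bacterial biotin ligase. Both groups, 4 libraries of chromatin streptavidin precipitation (ChSP) and 4 of input chromatin, came from cells given the pTO-Klf13Bio plasmid, which expresses KLF13 with a tag that BirA biotinylates. Chromatin was collected 24 h after transfection. KLF13 was thus supplied from a plasmid, and the labels do not state how many clones or cultures were used. A pulldown from BirA cells without tagged KLF13 was not analysed here, so streptavidin background cannot be told apart from KLF13 at any peak. The list has 1 fold (how many times the ChSP signal exceeded input, on a linear scale) and 1 p per peak for the 8 libraries together. No fold below has a replicate error, read depth is unknown, and differences between classes are given as descriptions without a test.

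KLF13 is a Krüppel-like zinc finger factor. Proteins of this family and the related Sp factors bind GC boxes and CACCC boxes, short G-rich or C-rich elements that are common in CpG-rich promoters. KLF13 can recruit the SIN3 and histone deacetylase corepressor complex, and it is studied in hippocampal neurons for its part in neurite growth and cell survival. The DNA just upstream of a TSS, called the proximal promoter, holds many such elements.

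Sequences are shown for members whose peak reaches into the promoter window of the same gene in the RefSeq table (GRCm38.p6, 250 bases before to 50 after a gene's start). A window was given for 283 of the 384 peaks, and in 103 it overlapped the peak by at least 100 bases. Printed are the bases before the RefSeq start that lie inside the peak, 5′ to 3′ on the gene's strand, with GC boxes (GGGCGG) and CACCC box cores (GGGTGG) on either strand in capitals. They belong to the 6 eligible members of highest fold and to the strongest ones whose window held neither element. The first 4 held such elements, and the printed bases of the next 3 held none. Each fold belongs to the whole peak, and peak bases outside the window were not searched for either element. Arhgef11, which encodes an activator of small GTPases, had a fold of 40.1, and its stretch at chr3:87617309-87617558 (plus strand) held 7 GC boxes and 1 CACCC core. Rtn4r, the gene of the Nogo receptor, had a fold of 29.6, and its stretch at chr16:18127392-18127600 (plus strand) held 6 GC boxes and 1 CACCC core. Fndc3c1, a fibronectin type III domain gene, had a fold of 30.4 with 4 GC boxes at chrX:106485301-106485479 (minus strand). Syncrip, an RNA-binding protein gene, had a fold of 38.8 with 2 GC boxes at chr9:88482401-88482647 (minus strand).
Arhgef11: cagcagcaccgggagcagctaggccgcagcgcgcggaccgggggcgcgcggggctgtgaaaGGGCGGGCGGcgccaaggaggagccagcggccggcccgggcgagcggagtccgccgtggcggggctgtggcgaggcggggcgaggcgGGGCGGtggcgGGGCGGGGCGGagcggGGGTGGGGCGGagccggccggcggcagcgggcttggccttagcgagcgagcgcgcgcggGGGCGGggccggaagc
Rtn4r: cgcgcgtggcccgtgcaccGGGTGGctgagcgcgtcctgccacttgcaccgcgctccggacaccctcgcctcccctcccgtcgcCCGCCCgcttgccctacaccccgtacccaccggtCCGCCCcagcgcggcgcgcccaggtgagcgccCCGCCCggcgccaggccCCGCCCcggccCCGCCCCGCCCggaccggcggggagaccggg
Fndc3c1: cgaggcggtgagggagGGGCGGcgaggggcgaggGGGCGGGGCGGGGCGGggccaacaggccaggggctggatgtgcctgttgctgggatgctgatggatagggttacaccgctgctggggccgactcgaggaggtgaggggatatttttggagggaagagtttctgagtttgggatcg
Syncrip: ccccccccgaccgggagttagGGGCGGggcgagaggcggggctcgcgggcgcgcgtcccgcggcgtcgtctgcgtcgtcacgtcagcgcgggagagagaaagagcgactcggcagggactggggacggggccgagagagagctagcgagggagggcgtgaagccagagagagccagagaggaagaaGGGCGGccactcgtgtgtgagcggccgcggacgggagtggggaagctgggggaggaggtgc

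Stretches without either element came from 3 genes. Npr2, the receptor gene for C-type natriuretic peptide, had a fold of 32.4 in a peak 700 bp wide. Its printed 116 bases, chr4:43631685-43631800 (plus strand), held neither, although the rest of its window held 1 CACCC core. Ndufa4, a gene for a protein associated with the respiratory chain, had a fold of 29.2 in a peak 500 bp wide. Its printed 100 bases, chr6:11907601-11907700 (minus strand), had a GC content of 39%. Cacng2, which encodes an auxiliary subunit of AMPA receptors, had a fold of 26.4 in a peak 800 bp wide. Its printed 230 bases are chr15:78119301-78119530 (minus strand). The Ndufa4 and Cacng2 peaks also held the RefSeq start of another gene, Phf14 and A730060N03Rik.
Npr2: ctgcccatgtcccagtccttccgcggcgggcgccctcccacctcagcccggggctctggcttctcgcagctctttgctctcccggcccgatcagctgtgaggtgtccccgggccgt
Ndufa4: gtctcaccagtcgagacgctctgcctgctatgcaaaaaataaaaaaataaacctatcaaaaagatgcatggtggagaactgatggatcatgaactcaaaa
Cacng2: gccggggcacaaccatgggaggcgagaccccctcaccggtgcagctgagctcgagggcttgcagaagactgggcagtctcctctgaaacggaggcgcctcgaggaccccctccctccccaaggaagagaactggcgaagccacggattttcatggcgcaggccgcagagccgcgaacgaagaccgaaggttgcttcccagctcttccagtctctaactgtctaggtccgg

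Across the 103 windows, 90 (87.4%, exact 95% binomial interval 79.4 to 93.1) held at least 1 GC box or CACCC core, against 52.7% of all 32851 windows of that length. GC boxes were in 80.6% of the members' windows and CACCC cores in 43.7%, against 35.7% and 31.5% of all windows. The longer forms GGGGCGGGG and GGGGTGGGG, which contain the shorter ones, were in 44.7% of the members' windows and 16.3% of all windows. Base composition moved with these shares: median GC content was 71.0% in the members' windows and 52.7% in all windows. Among windows of 70% GC or more, 53 of 57 member windows (93.0%) and 95.2% of all windows held an element, and between 60% and 70% GC the shares were 84.2% and 86.0%. Within these bands of GC content the members' share was therefore near that of promoters in general. Windows of peaks over a TSS had a share of 91.4%, inside the members' interval. The TATA box (TATAAA) was in 2 of the 103 windows (1.94%, exact 95% binomial interval 0.236 to 6.84), against 13.6% of all windows. Windows of peaks over a TSS had 3.99% and those of downstream peaks 6.67%, both inside that interval. The CCAAT box was in 21.4% against 37.4%, with 29.6% over a TSS and 26.7% downstream. The E box (CACGTG) was in 7.77% against 7.15%, and the full cAMP response element (TGACGTCA) in 1.94% against 1.79%. These shares were not compared within bands of GC content. The median fold was 19.2 over the 90 members with a GC box or CACCC core in the window and 19.8 over the 13 without.

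The members crowded toward the TSS. The nearer edge lay a median of 250.5 bp before the TSS (quartiles 105.5 and 492), and 192 of the 384 peaks, or 50%, ended within 250 bp. In steps of 100 bp the count was 93 next to the TSS, 73 in the following step and 17 between 901 and 1000 bp. Peaks on the downstream side were more numerous, so that upstream peaks made up 23.8% (21.7 to 25.9) of the 1615 peaks within 1 kb that missed the TSS. The imbalance was largest close in, with 192 upstream and 792 downstream peaks within 250 bp and 41 against 90 between 751 and 1000 bp. Genes on the minus strand had 200 of the members. At the outer limit, the peaks just inside were 1 of Mark4, 1000 bp out with a fold of 15.9, and that of Slc6a5, a glycine transporter gene, 1 bp nearer with 13.1. Tinagl1, a matrix protein gene, followed at 979 bp with 10.8. Just outside were Mir6418 at 1007 bp with 13.3 and Pfkfb3 at 1011 bp with 9.43. Closest to the TSS were Tmem38a, a cation channel gene of the sarcoplasmic reticulum, at 3 bp with a fold of 21.2, and at 4 bp Syncrip, Chrdl2 and Pmaip1 with folds of 38.8, 14.3 and 18.6.

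**Figure D1:**
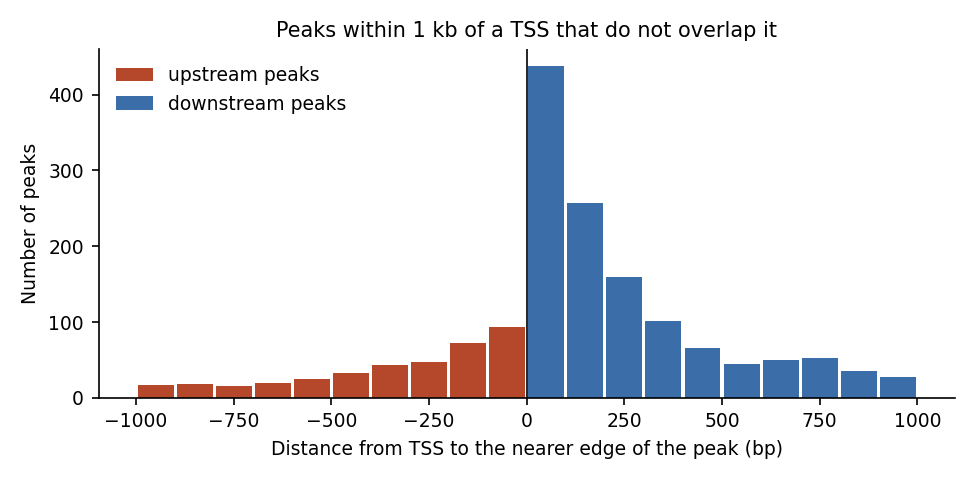
Number of peaks (vertical axis) in 100 bp steps of distance from the TSS to the nearer peak edge (horizontal axis, bp), for upstream and downstream peaks. The bar next to the TSS holds 93 peaks upstream and 438 downstream, and both sides thin out with distance.

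Upstream peaks were weaker and narrower than peaks over a TSS and close to downstream peaks in fold. The classes are set by overlap with a TSS, and a wider peak near a TSS is more likely to cover it. The rule itself can therefore set part of the width difference from peaks over a TSS. How much of the fold difference goes with width was not tested. Their median fold was 17.7 (95% interval of the median 17.2 to 18.5, quartiles 13.7 and 21.6), against 24.1 over a TSS, 16.9 downstream and 21.1 over all peaks. A fold above the median of all peaks was found at 112 members (29.2%), against 27.4% of downstream peaks and 29.1% of peaks beyond 1 kb. A fold of 40 was reached by 8 members (2.08%), against 8.08% of all peaks. For downstream peaks and peaks beyond 1 kb that share was 1.71% and 1.99%. Their median width was 400 bp (quartiles 300 and 600), against 700 bp over a TSS and 500 bp downstream. The narrowest width in the list, 200 bp, was found at 73 members (19.0%), against 12.9% of downstream peaks, 12.1% of peaks beyond 1 kb and 1.40% of peaks over a TSS. The 50% of all listed peaks with the smallest p held 73 members (19.0%), against 25.4% of downstream peaks and 22.8% of peaks beyond 1 kb. By distance, the median fold was 18.4 within 250 bp, 17.4 from 251 to 500 bp, 17.5 from 501 to 750 bp and 16.9 from 751 to 1000 bp, with overlapping intervals. Wider members had higher folds, with a Spearman correlation of 0.61 between fold and width over the 384 peaks, which share libraries and caller.

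**Figure D2:**
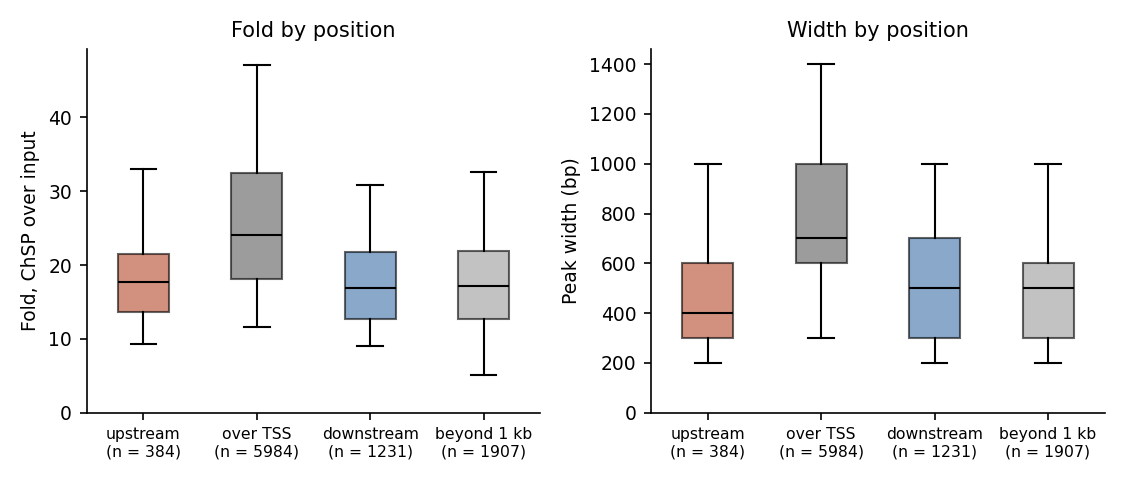
Fold of ChSP over input (left) and peak width in bp (right) by position, with the median as the line, quartiles as the box and the 5th and 95th percentiles of the peaks as whiskers. Upstream peaks have a median fold of 17.7 and width of 400 bp, below the 24.1 and 700 bp of peaks over a TSS. A wider peak near a TSS is more likely to cover it, so the class rule can set part of the width difference.

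The highest upstream folds were at genes of several kinds. Smad6, which encodes an inhibitor of bone morphogenetic protein signalling, led with a fold of 52.5 at chromosome 9, 64022801 to 64023400, 742 bp before the TSS (the authors' p = 3.26e-18). Its second peak, 1500 bp away on the downstream side, had a fold of 22.0. Usp49, a deubiquitinase gene, had a fold of 51.9 at chromosome 17, 47629201 to 47630300, and the smallest p of the class (the authors' p = 4.58e-30). Zcchc14, a zinc knuckle gene, had 49.2, the microRNA gene Mir3083 had 48.9, and Cdc42bpa, a kinase gene acting below the GTPase Cdc42, had 46.6 in a peak 1200 bp wide. A pair of nuclear receptor genes followed. Nr2f2, which encodes COUP-TFII, had a fold of 46.3 in one of the 2 widest members, 1600 bp at chromosome 7, 70360701 to 70362300. Rarg, the retinoic acid receptor gamma gene, had 40.8 at chromosome 15, 102247001 to 102248200. Arhgef11, Zfp532, a zinc finger gene, Syncrip and Phf21a, a histone reader of the LSD1 corepressor complex, had folds of 40.1, 39.8, 38.8 and 38.2. These top folds lay from 4 bp to 851 bp before the TSS.

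The widest members besides Nr2f2 were Tbkbp1 and Hes1, both with folds above the upper quartile of the class, 21.6. Tbkbp1, an adaptor gene of the kinase TBK1, had a fold of 25.6 in a peak of 1600 bp, and Hes1, the repressor gene downstream of Notch, had 38.0 in 1300 bp. Another of the 4 smallest p was at Nudt6, a nudix hydrolase gene, with a fold of 37.6 in 700 bp, 15 bp from the TSS. The lowest folds were 2.10 at Sfi1, a centrosome gene, 4.93 at Piga, which acts in GPI anchor synthesis, 6.001 at Syap1 and 6.66 at Ppp6r1, a phosphatase subunit gene. The Sfi1 peak had another Sfi1 peak 800 bp away with a fold of 2.40, and the Syap1 and Ppp6r1 peaks lay 100 bp from peaks of the same genes with folds of 18.3 and 30.8.

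Many upstream peaks stood beside another peak. For 193 of the 384 (50.3%, exact 95% binomial interval 45.1 to 55.4) the nearest other peak was within 1 kb, against 12.9% of all listed peaks, 24.8% of downstream peaks and 6.38% of peaks over a TSS. These shares depend on class size, with 384 upstream peaks, 1231 downstream and 5984 over a TSS. Where neighbours belong to different classes, the same pairs make a larger share of the smaller class. The contrast between classes is therefore not read as a trait of upstream peaks. The gap had a median of 200 bp and was 100 bp, the smallest found, at 54 members. The neighbour lay over a TSS for 98 of the 193, downstream for 72, upstream for 16 and elsewhere for 7, and it was assigned to the same gene in 94, 71, 14 and 7 of these. Distance mattered for the comparison with downstream peaks. Within 250 bp of the TSS 46.9% of upstream and 16.7% of downstream peaks had such a neighbour, while from 751 to 1000 bp the shares were 51.2% and 43.3%, with overlapping intervals. Whether the peak caller divided single broad regions was not tested. Members with and without a neighbour had median folds of 17.5 and 18.3, with overlapping intervals, and median widths of 400 and 500 bp.

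**Figure D3:**
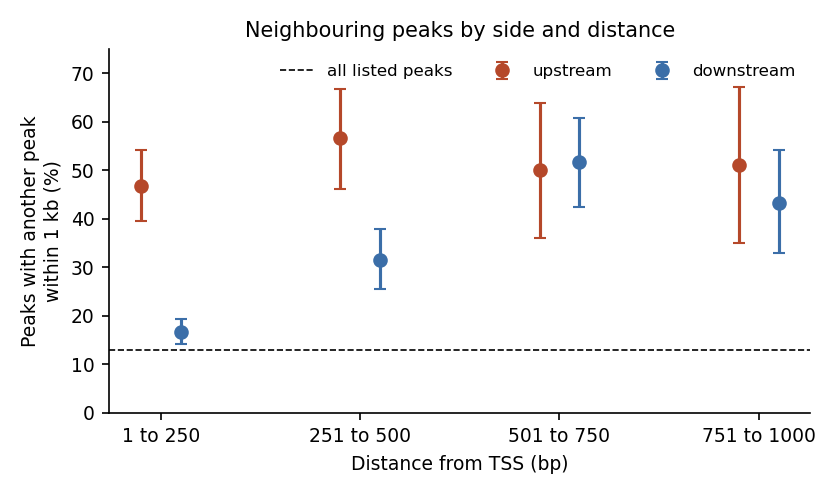
Share of peaks with another listed peak within 1 kb (vertical axis, %) by distance from the TSS (horizontal axis, bp) for upstream and downstream peaks, with exact 95% binomial intervals and the share over all listed peaks as a dashed line. Close to the TSS the shares are 46.9% upstream and 16.7% downstream, and beyond 500 bp their intervals overlap. The sides differ in size, with 192 upstream and 792 downstream peaks within 250 bp, and the shares depend on this.

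For 119 members (31.0%, exact 95% binomial interval 26.4 to 35.9) the same gene also had a peak over a TSS, and the folds of both peaks were set side by side. The matching share was not taken over all listed peaks, so 31.0% is not read as high or low. In 98 of these pairs the gap was at most 1 kb, and in 82 the peaks were also annotated to the same TSS, a restriction chosen after seeing the data. The other pairs can lie at different promoters of a gene. The upstream fold was the lower in 78 of all 119 pairs (65.5%, exact 95% binomial interval 56.3 to 74.0), with a median ratio of 0.83 (quartiles 0.56 and 1.17). Among the 82 pairs at one TSS it was the lower in 50 (61.0%, 49.6 to 71.6), with a median ratio of 0.87, and this interval includes 50%. The upstream peak was the narrower in 51 of the 82, the wider in 17 and of the same width in 14. The class rule can also set part of this width difference, because a wider peak is more likely to cover a TSS. Across the 119 pairs the Spearman correlation of both folds was -0.002, with all peaks taken from the same libraries. The upstream peak was far the weaker at Ctbp2, a corepressor gene, with 7.39 against 33.6, and at the homeobox gene Hoxd8, with 13.3 against 53.9. The ratios were nearly as low at Sh3rf3, a ubiquitin ligase gene, with 8.21 against 32.1, and at Slc29a4, a monoamine transporter gene, with 9.40 against 35.2. Syap1 had 6.001 against 18.3. In the opposite direction, the kainate receptor gene Grik3 had 28.9 upstream and 8.33 over the TSS, and Zcchc14 had 49.2 and 17.01. Nudt6 had 37.6 and 14.5 at different annotated TSSs, Kcnmb4, a potassium channel subunit gene, had 29.5 and 14.9, and the immediate early gene Egr1 had 33.0 and 18.3. At these 5 genes the higher fold was on the upstream peak.

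**Figure D4:**
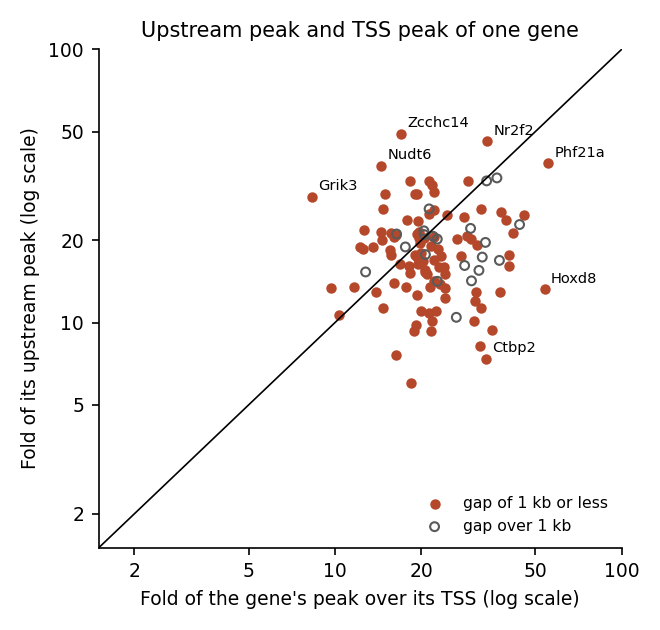
Fold of a gene's upstream peak (vertical axis, log scale) against the fold of the same gene's peak over its TSS (horizontal axis, log scale), 1 point per upstream peak, with the line of equal folds. Filled points have a gap of at most 1 kb and open points a larger one, up to different promoters of a gene. Of 119 points 78 lie below the line, and Grik3, Zcchc14 and Nudt6 lie far above it.

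At other genes listed peaks stood on both sides of a TSS, and the gene had no listed peak over it. For 61 members (15.9%, exact 95% binomial interval 12.4 to 19.9) a downstream peak annotated to the same TSS lay within 1 kb, the TSS fell between both peaks, and the gene had no listed peak over a TSS. This share too has no matching value over all listed peaks. The gap between both peaks had a median of 300 bp and was 100 bp at its smallest, while peak widths are multiples of 100 bp. Whether signal was absent from the gap, or the caller divided a single region, was not tested. The median fold was 17.2 on the upstream and 17.8 on the downstream side, and the upstream fold was the lower in 31 of the 61. Syncrip had folds of 38.8 upstream and 56.4 downstream across a gap of 300 bp. Phf2, a histone demethylase gene, had 28.6 and 31.9, and Ppp4r1, a phosphatase subunit gene, had 33.8 and 27.0. The upstream peak was also the stronger at the netrin receptor gene Unc5a, with 28.9 against 23.9. A gene could also have upstream peaks at different TSSs or at one: 12 genes had 2 members each. Zfp423, a zinc finger gene of neural development, had folds of 29.98 and 16.9 at 306 and 906 bp, 100 bp apart. Ing2, a SIN3 complex subunit, had 25.9 and 14.1 at different TSSs. A peak of 22.2 lay between them, over the TSS to which the stronger peak was annotated. Mark4, a microtubule kinase gene, had 34.0 and 15.9, and Sox6 had 24.3 and 11.0, each also at different TSSs.

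Whether a peak counts as upstream depends on the TSS taken. The RefSeq start of the same gene lay inside 20 members (5.21%), against 3.90% of downstream peaks and 47.7% of all peaks, as at Arhgef11, Grik3, Tbkbp1 and the phosphodiesterase gene Pde8a, so that these peaks cover a start in that annotation. The start of another gene lay inside 15 members (3.91%), each time on the strand opposite to the assigned gene, against 2.19% of downstream peaks, 10.4% of peaks over a TSS and 7.84% of all peaks. The genes named here for this were picked after their values were seen. Sdccag8 and Cep170, both centrosomal genes, share a peak with a fold of 35.4 (chromosome 1, 176813401 to 176814200), and Ndufa4 shares one with Phf14. RefSeq starts of antisense genes lay inside peaks of Prdm16 (Prdm16os), Phf2 (Phf2os1) and Sox6 (Sox6os). Within 1 kb of the peak, an opposite-strand start of another gene was found for 55 members (14.3%, exact 95% binomial interval 11.0 to 18.2), near the 13.8% of all listed peaks. For 148 members (38.5%) the upstream peak was the only listed peak of its gene, against 69.1% of all peaks.

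Grouped by symbol into 20 gene families, 156 of the members (40.6%) fell into at least 1 family, against 30.3% of all listed peaks. The families were built from symbol patterns, so a name can take in an unrelated gene. Transcription factor and chromatin families had shares of upstream peaks whose exact intervals include the 4.04% of the whole list. Developmental factors of the homeobox, forkhead, SOX and like families had 17 upstream peaks among 278 (6.12%), with folds of 38.0 at Hes1, 33.0 at Tcf7, a Wnt pathway factor, and 24.7 at Hoxa13. C2H2 zinc finger genes had 7 of 213 (3.29%), led by Zfp532 with 39.8, Zfp423 with 29.98 and Zfp467 with 29.2. Chromatin genes had 11 of 186 (5.91%), with 38.2 at Phf21a, 30.6 at Prdm16 and 28.6 at Phf2. KLF13's own family had 2 of 34, Klf7 with a fold of 10.7 at 675 bp and Sp5 with 9.78 at 323 bp, and both folds were below the class median. The clock genes had 2 of 25, the repressor genes Bhlhe40 with 13.1 and Ciart with 9.91.

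Among signalling families the cAMP genes had 4 upstream peaks of 46 (8.70%, exact 95% binomial interval 2.42 to 20.8). They were Pde8a with a fold of 26.6, Akap12, an anchor of protein kinase A, with 20.8, and the adenylyl cyclase genes Adcy5 with 16.4 and Adcy8 with 13.7. Kinases and phosphatases had 15 of 272 (5.51%), led by Mark4 with 34.0, Ppp4r1 with 33.8 and Ppp1r26 with 27.0. Small GTPases and their regulators had 11 of 204 (5.39%). These were led by Cdc42bpa, taken in by its symbol, Arhgef11 and Arhgap20, a GTPase activator gene with a fold of 27.6. Genes of the TGF-beta, Wnt, Notch and Hedgehog pathways had 8 of 122 (6.56%). After Smad6 came Ptchd1, which resembles the Hedgehog receptor gene, with 20.6, and the Wnt receptor gene Fzd4 with 20.4. Ubiquitin genes had 10 of 318 (3.14%), where Usp49 with 51.9, Usp7 with 32.9 and Spsb4 with 23.4 led.

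Synapse and ion channel genes had upstream peaks most often among the 20 families, 26 of 234 (11.1%, exact 95% binomial interval 7.39 to 15.9). This was the 1 family whose interval lay above the 4.04% of all peaks. By gene, 25 of its 169 genes with a listed peak had an upstream one (14.8%), against 4.77% of all 7800 genes. The folds had a median of 16.4, against 17.7 over all upstream peaks, and 16 of the 26 had another peak within 1 kb. Of the family's 70 peaks in the 50% of the list with the smallest p, 2 were upstream, or 2.86% (exact 95% binomial interval 0.348 to 9.94). That interval includes the 1.54% of all such peaks. With 2 upstream peaks it is too wide to show whether the family stood above the list there. With a limit of 500 bp the family's share was 6.84% (3.96 to 10.9) against 3.04% of all peaks. Kcnmb4 had a fold of 29.5 in 500 bp and Grik3 28.9 in 900 bp. Further members, named after their values were seen, were the calcium channel genes Cacna1a, Cacna1d and Cacna1e with folds of 15.1, 16.5 and 16.3. The NMDA receptor gene Grin2b had 15.8 and the postsynaptic scaffold gene Shank3 had 13.0. Axon growth genes had 5 of 102 (4.902%), a share near that of the list. They included Rtn4r with 29.6, Unc5a with 28.9 and Ntrk2, the receptor gene for brain-derived neurotrophic factor, with 19.4 in 200 bp. Solute carriers had 12 of 175 (6.86%), among them the noradrenaline transporter gene Slc6a2 with 25.2 and the sodium proton exchanger gene Slc9a2 with 21.1.

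The 6 families of general cell functions had 0 to 5 upstream peaks each. Ribosomal protein genes had 0 of 26 listed peaks upstream (exact 95% binomial upper limit 13.2%). Vesicle traffic, autophagy and motor genes had 2 of 137 (1.46%, 0.177 to 5.17), the kinesin gene Kif26b with a fold of 9.30 and Sec16a with 9.16. RNA processing genes had 4 of 140 (2.86%), with 19.4 at Srsf5, a splicing factor gene, 17.6 at Ago4 and 16.9 at Elavl2. Mitochondrial genes had 3 of 41 (7.32%), Ndufa4 with 29.2, Ndufa13 with 21.8 and Tomm6, part of the import channel, with 16.8. Cell cycle and repair genes had 3 of 75, which besides Cdc42bpa were Cdc20b with 22.7 and the kinase inhibitor gene Cdkn2c with 13.0. Adhesion and matrix genes had 5 of 132 (3.79%), led by Col27a1 with 21.5, Fat4 with 19.7 and Cldn23 with 16.5. The intervals of all these shares include 4.04%.

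**Figure D5:**
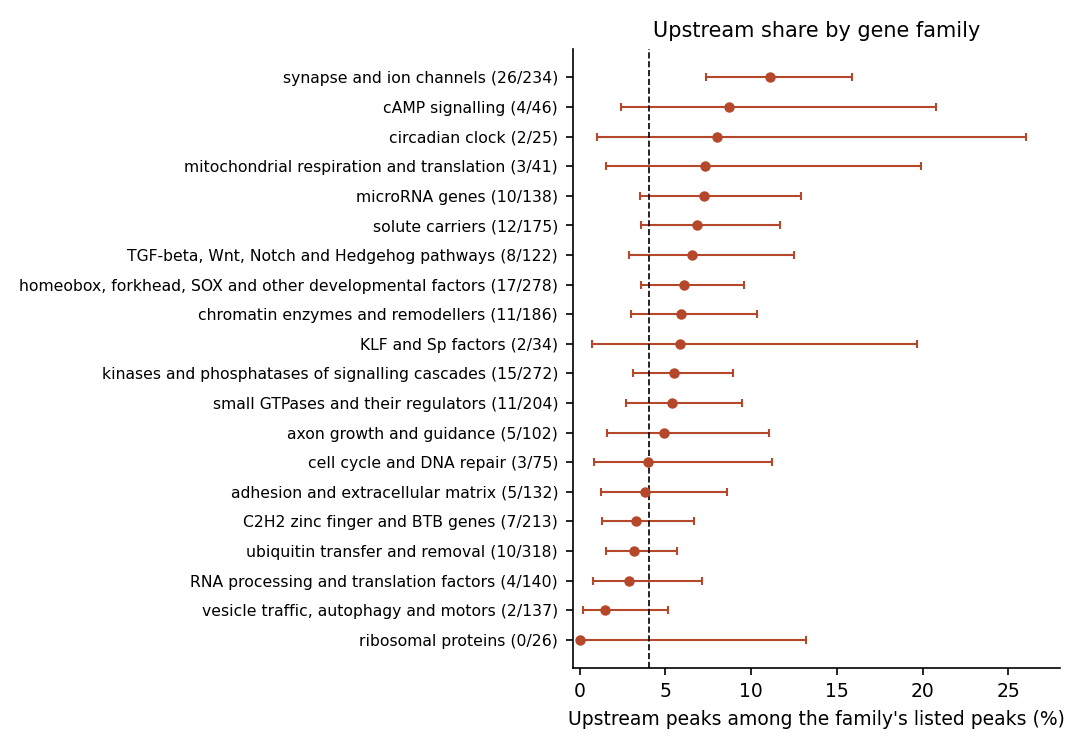
Upstream peaks as a share of each family's listed peaks (horizontal axis, %), with exact 95% binomial intervals and the counts beside each name, and the share of 4.04% over the whole list as a dashed line. Synapse and ion channel genes, at 11.1%, have an interval that lies above the line.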

How the data were processed

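The deposited file is 1 annotated peak list on GRCm38 over all 8 libraries. The name of the list gives PePr as the peak caller. Its version and settings were not given in the sources used here. Per the submitters' processing notes, FastQC 0.11.3, BWA 0.7.17-r1188, ChIPseeker 1.16.1 and HOMER 4.9.1 were used, without the role of each. The authors computed each peak's fold, a ratio on a linear scale, and its p-value. These columns have no descriptive header and were identified from the caller's column order and the values. A deposited score rises in exact proportion to the fold and was left aside. Width and distance to the TSS are columns of the authors' annotation, and widths are multiples of 100 bp. The sources used here give neither the scaling between libraries nor their depth.

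Members were taken by distance. Shares have exact (Clopper-Pearson) binomial intervals and medians have order-statistic intervals, both at 95% and for counting error only. Peaks are not replicates. Neighbours were the nearest other listed peaks by the gap between edges. RefSeq starts and promoter windows came from a RefSeq table on GRCm38.p6, with overlapping motif matches counted on both strands. The neighbour search was tested on simulated peaks, and the motif search on single GC boxes planted in sequences of A and T. GC-rich sequence and CACCC cores were not simulated. The members, families and the rule for named genes were set with earlier results of these data known. The rule took the 10 members with the highest fold (microRNA genes apart), the 4 widest, the 4 of lowest fold, the 4 of smallest p, the 3 nearest and 3 farthest, 3 per family, the 5 highest and 5 lowest ratios to a TSS peak, up to 4 genes with 2 members, up to 4 microRNA genes, and 6 sequences by fold with 2 lacking motifs. Some genes the rule names are not reported here. Unnamed gene models were skipped, and members on 1 chromosome were not printed as sequences. The second sequence lacking motifs is Cacng2, and the first is Ndufa4, also taken by fold. Alternatives kept the 50% of peaks with smallest p, dropped the 5% widest or unnamed gene models, moved the distance limit, or took a longer motif. Tables were handled with pandas 2.3.3 and numpy 2.4.6 in Python 3.11.15, intervals with scipy 1.17.1 and plots with matplotlib 3.10.9.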

Additional observations from a re-analysis of the deposited data

How the results depend on the processing

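No paired analysis was possible because each peak carries a single value for the 8 libraries together, and for the same reason no library could be left out. With the 4753 peaks of smallest p, upstream peaks made up 1.54% of the list, and the 73 left had a median fold of 26.1 and a median width of 800 bp. There 20.5% had a peak of the same gene over its TSS, 21.9% another such peak within 1 kb (2.99% of all 4753; 41.1% with every listed peak counted as a neighbour, so part of the fall comes from removing neighbours), and 2.86% of the synapse and ion channel peaks were upstream. Upstream peaks were 3.04% of the list with a limit of 500 bp and 5.37% with 3000 bp. With the 500 bp limit the synapse and ion channel share was 6.84%. Another peak lay within 500 bp for 43.5% of members, and 44.7% of the members' windows held the longer motif. The 500 bp limit, the 500 bp gap and the longer motif are narrower than the reported settings, so their shares can only fall. The 3000 bp limit can only raise the upstream share. For the remaining changes the cause was not tested. Leaving out the 5% widest peaks, unnamed gene models or folds under 5, where run, moved no value past its interval, nor did counting the motif only inside the peak. The settings for neighbours, for the synapse family and for folds under 5 were chosen after seeing the data. Depth is unknown, so a promoter without an upstream peak is not shown to lack one.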

Other observations

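Noncoding genes held a small part of the upstream peaks. In the RefSeq annotation 18 members (4.69%) were assigned to long noncoding RNA genes and 9 (2.34%) to microRNA genes, against 3.57% and 1.38% of all listed peaks. By symbol, microRNA genes and their host genes had 10 upstream peaks of 138 (7.25%, exact 95% binomial interval 3.53 to 12.9). The highest folds were 48.9 at Mir3083 (chromosome 17, 26948401 to 26949200) and 36.1 at Mir7655, followed by 26.4 at Mir193a and 24.95 at Mir124a-1hg, the host gene of a neuronal microRNA. The distance here is to the start of the microRNA annotation, which can differ from the start of the primary transcript. Upstream peaks were found on 20 chromosomes, from 1.90% of the peaks on chromosome 12 to 6.09% on chromosome 16, and the single peak on the Y chromosome was not upstream.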
